A study of Homo sapiens with 9 samples.

Results

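A set of 10 genes that define and control the epithelial-mesenchymal transition (EMT) were followed in MDA-MB-231 cells that had survived ferroptosis inducers. They were taken by symbol from the 58735 genes of the deposited tables, and each symbol matched 1 row. The 10 genes comprised the transcription factors SNAI1, SNAI2, TWIST1, ZEB1 and ZEB2, the cadherins CDH1, CDH2 and CDH11, the intermediate filament gene VIM, and EPCAM, an epithelial cell surface adhesion gene. MDA-MB-231 is an established human triple-negative breast cancer line with a mesenchymal-like shape. The study held 9 polyadenylated RNA sequencing libraries, 3 from cells given DMSO (vehicle), 3 from cells that outlived rising concentrations of erastin (erastin-R) and 3 from cells that outlived rising concentrations of RSL3 (RSL3-R). Erastin blocks the cystine importer system xc-, and RSL3 blocks the lipid peroxide-reducing enzyme GPX4. All 3 groups were of this line, and the labels gave no dose, exposure time or clone number for them. It was not stated whether the 3 libraries of a group were separate cultures, so p-values measure only the spread between these libraries, which may be technical.

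EMT is the switch by which epithelial cells lose cell-cell junctions and take on a migratory form. The SNAI, TWIST and ZEB factors drive it, and SNAI1, SNAI2, ZEB1 and ZEB2 repress CDH1, which encodes the junction protein E-cadherin, by binding E-box letters in its promoter. The miR-200 family of microRNAs in turn represses ZEB1 and ZEB2. Mesenchymal-like cancer cells with high ZEB1 are known for their sensitivity to GPX4 inhibition, whereas E-cadherin contacts are known to restrain ferroptosis through merlin and the Hippo pathway. The comparisons below ask how these genes stood in the cells that had outlived each compound.

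The miR-200 sequences are shown first because their seeds link the family to ZEB1 and ZEB2. RefSeq sequences (GRCh38.p14) are written 5′ to 3′, with the seed, bases 2 to 8, in capitals. The first 3 share 1 seed and the last 2 share another that differs from it by a single letter.
hsa-miR-200b-3p: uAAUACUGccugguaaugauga
hsa-miR-200c-3p: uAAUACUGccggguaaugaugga
hsa-miR-429: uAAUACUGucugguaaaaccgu
hsa-miR-200a-3p: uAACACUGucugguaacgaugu
hsa-miR-141-3p: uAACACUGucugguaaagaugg

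Matches to the 2 seed complements, CAGTATT and CAGTGTT, were counted in the longest 3′ untranslated region of each gene in GENCODE 29. ZEB1 held 14 matches, 6 to the first and 8 to the second, in 6068 bases, and 1 of 19467 genes (ZEB1 itself) held that many. ZEB2 held 9 matches in 5373 bases, a number reached by 6 genes, or 0.031%. SNAI2 and CDH11 held 1 match each, and 29.6% of genes held at least 1. The other 6 genes held none, although longer regions have more room for a match and the counts were not scaled for length. None of the 7 loci that encode the miR-200 family or host it and miR-205 (MIR200CHG, MIR205HG, MIR200A, MIR200B, MIR200C, MIR141 and MIR429) had a count in any library. Polyadenylated RNA libraries do not measure mature microRNAs. The rows of MIR200A, MIR200B, MIR200C, MIR141 and MIR429 span only 68 to 95 bases, so their zeros cannot show whether a longer precursor transcript was present. The zeros of MIR200CHG and MIR205HG concern those host transcripts only.

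Promoter windows were searched for CACCTG and its reverse complement CAGGTG, the E-box letters bound by SNAI1, SNAI2, ZEB1 and ZEB2. Each window ran from 250 bases before a RefSeq start to 50 bases from it on, on GRCh38.p14. The table held windows for ZEB1, ZEB2, CDH2 and VIM. SNAI1, SNAI2, TWIST1, CDH1, CDH11 and EPCAM had no entry. ZEB1 had 7 windows, of which the one at chr10:31318167-31318466 held 1 match, 57 bases before the start, and the one at chr10:31318966-31319265 held 3, at 242 and 85 bases before the start and at base 34 from it. The other 5 ZEB1 windows, the ZEB2 window, the 2 CDH2 windows and the VIM window at chr10:17227991-17228290 held none. Of all 35116 windows of this length, 20.6% held at least 1 match and 0.635% held at least 3. The 2 ZEB1 windows with a match and the window of VIM, the most abundant of the 10 genes, are given on the plus strand with the matches in capitals. A match is a description of the letters and not a measured binding site.
ZEB1 upstream window: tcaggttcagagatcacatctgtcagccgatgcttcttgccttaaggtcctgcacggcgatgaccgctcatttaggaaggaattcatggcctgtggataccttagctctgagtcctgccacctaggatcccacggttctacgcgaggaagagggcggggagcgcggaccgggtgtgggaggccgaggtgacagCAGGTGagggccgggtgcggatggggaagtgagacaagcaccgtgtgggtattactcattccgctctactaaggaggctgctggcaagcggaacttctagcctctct
ZEB1 downstream window: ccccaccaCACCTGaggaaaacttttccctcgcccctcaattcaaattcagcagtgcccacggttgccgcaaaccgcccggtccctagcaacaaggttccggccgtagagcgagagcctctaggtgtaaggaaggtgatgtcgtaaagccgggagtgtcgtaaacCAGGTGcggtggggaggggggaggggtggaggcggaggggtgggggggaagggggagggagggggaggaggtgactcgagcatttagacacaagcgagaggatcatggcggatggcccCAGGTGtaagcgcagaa
VIM window: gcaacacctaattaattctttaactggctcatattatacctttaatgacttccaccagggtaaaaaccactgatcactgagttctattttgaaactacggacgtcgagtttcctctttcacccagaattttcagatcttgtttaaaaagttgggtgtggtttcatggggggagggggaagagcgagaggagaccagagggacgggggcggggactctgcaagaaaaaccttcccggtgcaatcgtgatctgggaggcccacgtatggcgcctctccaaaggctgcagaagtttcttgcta

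Libraries held between 15405102 and 17273464 counts, and 16188 genes passed the filter on low counts and were tested. Correlations of log2 CPM (counts scaled to library size) ran from 0.986 to 0.992 within groups and from 0.959 to 0.972 between groups. Erastin-R replicate 1 stood apart from the other 2 erastin-R libraries on the third principal component (6.71% of the variance), at -35.7 against 14.4 and 13.0. It also had a mitochondrial share of 7.95% of counts, against 5.55% and 5.84% in the other 2, so results that depend on it are given with and without it. The mitochondrial share was 7.97% to 8.93% in vehicle and 9.52% to 10.2% in RSL3-R. The 5 claudin-low markers VIM, CD44, CAV1, AXL and MSN summed to 4494 to 4939 CPM over the 9 libraries. VIM is also 1 of the 10 genes. No other line was compared, so this sum is a description and not a check of the line's identity. The sum held moves in both directions: in each survivor group 1 of the 5 was higher than in vehicle and 2 were lower. Beside this, 27.1% of all genes tested were higher and 26.8% lower in erastin-R, and 23.8% and 24.9% in RSL3-R. With 5 markers, these counts set nothing apart from those shares. CAV1, a caveolar coat protein, fell from 677 CPM in vehicle to 308 in erastin-R (log2 fold change -1.14, adjusted p = 1.54e-09, edgeR quasi-likelihood test) and 374 in RSL3-R (-0.86, adjusted p = 1.45e-08). AXL, a receptor tyrosine kinase, rose from 791 CPM to 1186 (0.58, adjusted p = 2.01e-06) and 1045 (0.40, adjusted p = 7.32e-05). CD44 was lower in RSL3-R (-0.43, adjusted p = 3.42e-05) and in erastin-R (-0.15, adjusted p = 0.0343), the latter call being lost in 10 of 15 alternatives. The hormone receptor genes ESR1 and PGR had 1 to 12 and 0 to 2 counts. ERBB2, which encodes the receptor HER2, had 927 to 1598.

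Scaled by gene length, VIM and ZEB1 dominated the 10 genes in every group, and the cadherins lay at the bottom. In vehicle, the mean FPKM (fragments scaled by gene length and library depth) was 283 ± 7.91 (SD, n = 3) for VIM and 16.8 ± 1.43 for ZEB1. SNAI2 followed at 2.58 ± 0.151, then SNAI1 at 0.908 ± 0.192, EPCAM at 0.843 ± 0.243 and ZEB2 at 0.690 ± 0.123. The libraries of SNAI1 and EPCAM overlapped, as did those of EPCAM and ZEB2, so these neighbours had no order beyond their spread. The place of ZEB2 depends on its length, all annotated exons merged, which is 25058 bases against 3392 for SNAI2 and 1686 for SNAI1. In counts, ZEB2 (249 to 338 in vehicle) lay above SNAI2 (135 to 152) and SNAI1 (21 to 31). CDH1 stood at 0.183 ± 0.0732, CDH2 at 0.0287 ± 0.0191 and CDH11 at 0.0194 ± 0.0139, the last 2 overlapping. TWIST1 was at 0 in all 9 libraries. A floor of 3 counts, about the upper 95% limit for a count of 0 from counting error alone, would be 0.175 to 0.193 CPM. In erastin-R, SNAI1 reached 3.28 ± 0.172 FPKM and overlapped SNAI2 at 3.49 ± 0.502. In RSL3-R, CDH1 rose to 0.552 ± 0.0510 FPKM and overlapped EPCAM at 0.652 ± 0.148. The order of VIM and ZEB1 at the top and of CDH2, CDH11 and TWIST1 at the bottom held by the means of all 3 groups.

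**Figure D1:**
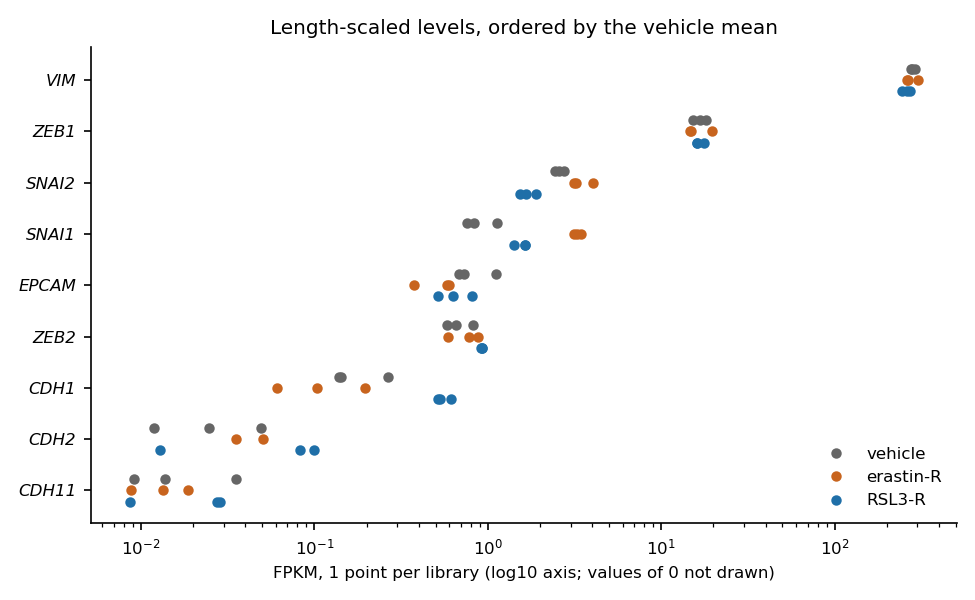
FPKM of 9 of the 10 genes on a log10 axis, with 1 point per library, coloured by group, and genes ordered by the vehicle mean. VIM lies near 283 FPKM in vehicle and CDH11 near 0.0194, and SNAI1 and CDH1 shift most between groups. TWIST1 and 1 CDH2 library were at 0 and are not drawn.

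SNAI1 rose in both survivor groups, SNAI2 rose in erastin-R and fell in RSL3-R, and CDH1 rose in RSL3-R. ZEB1 did not pass the test in either survivor group. Of the 7 genes tested (TWIST1, CDH2 and CDH11 had too few counts), 2 were higher and 0 lower in erastin-R than in vehicle at an adjusted p under 0.05 (edgeR quasi-likelihood test, Benjamini-Hochberg over all genes). Of all genes tested, 27.1% were higher and 26.8% lower in this comparison. In RSL3-R against vehicle, 3 genes were higher and 1 lower, beside 23.8% and 24.9% of all genes. In RSL3-R against erastin-R, 1 was higher and 2 lower, beside 22.3% and 26.9% of all genes. The call differentially expressed, which also asks for a 2-fold difference, was met by 1, 1 and 3 of the 7 genes in the 3 comparisons, and by 13.4%, 10.1% and 10.3% of all genes. With 7 genes, these counts set nothing apart from the background. The 2 comparisons with vehicle share the vehicle libraries.

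**Figure D2:**
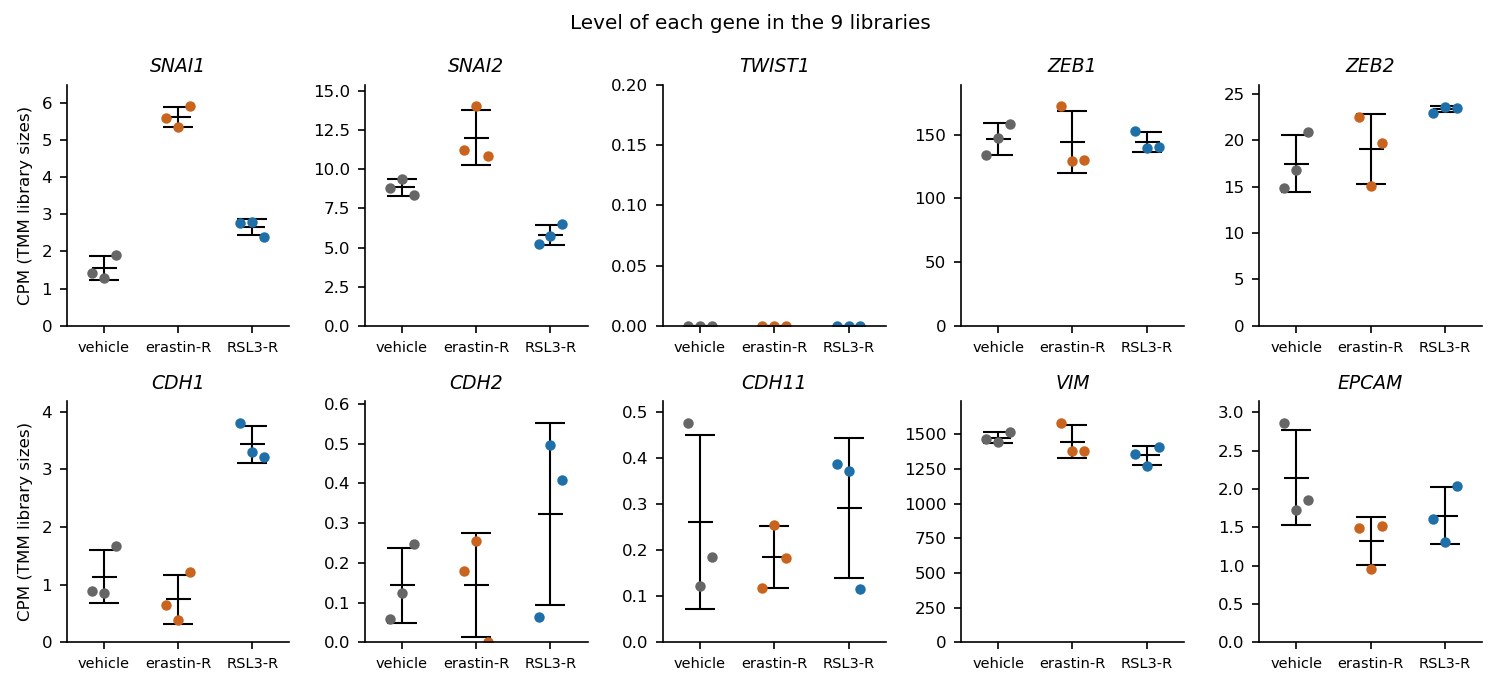
CPM of each of the 10 genes in the 9 libraries, on TMM-normalised library sizes. Points are libraries, and the black bars give the mean and SD of the 3 libraries of a group. The SNAI1 libraries of erastin-R (84 to 97 counts) and the CDH1 libraries of RSL3-R (53 to 59 counts) lie above all others of the same gene, and the ZEB1 libraries overlap between all 3 groups.

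SNAI1, a zinc finger repressor of E-cadherin, was the most changed of the transcription factors. It lies on the plus strand of chr20:49982999-49988886 (GRCh38) and had 24, 21 and 31 counts in the vehicle libraries, 94, 84 and 97 in erastin-R and 43, 45 and 41 in RSL3-R. No library of 1 group fell within the range of another, and the erastin-R libraries were the highest. The means were 1.55 ± 0.324 CPM in vehicle, 5.61 ± 0.276 in erastin-R and 2.66 ± 0.225 in RSL3-R (SD, n = 3). The log2 fold change from vehicle was 1.86 (SE 0.196, adjusted p = 2.99e-06) in erastin-R, or 3.62-fold, and 0.78 (SE 0.211, adjusted p = 0.00769) in RSL3-R, or 1.71-fold. RSL3-R was lower than erastin-R by a log2 fold change of -1.08 (SE 0.182, adjusted p = 2.46e-04), and by one of -0.97, under 2-fold, without RSL3-R replicate 3.

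SNAI2, the related factor also called Slug, went opposite ways in the 2 survivor groups. Its counts were 148, 152 and 135 in vehicle, 188, 220 and 178 in erastin-R and 81, 92 and 111 in RSL3-R. The 3 groups did not overlap. Means were 8.85 ± 0.530, 12.005 ± 1.74 and 5.81 ± 0.637 CPM (SD, n = 3). SNAI2 was higher in erastin-R by a log2 fold change of 0.44 (SE 0.135, adjusted p = 0.0136) and lower in RSL3-R by one of -0.60 (SE 0.144, adjusted p = 0.00329). Of all genes, 3.94% passed in both comparisons with vehicle in opposite directions, and SNAI2 was the 1 gene of the 10 that did. The erastin-R call was lost without vehicle replicate 3 (0.39, adjusted p = 0.0541) and without erastin-R replicate 2 (0.32, adjusted p = 0.0766). Between the survivor groups the log2 fold change was -1.04 (SE 0.141, adjusted p = 4.02e-05), RSL3-R being the lower. This value was under 2-fold without erastin-R replicate 2 (-0.92) or RSL3-R replicate 1 (-0.94).

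ZEB1, a zinc finger and homeodomain repressor, was the most abundant transcription factor of the set. It had 2246, 2387 and 2566 counts in vehicle, 2888, 2033 and 2144 in erastin-R and 2375, 2248 and 2394 in RSL3-R. The groups overlapped, and erastin-R replicate 1 was the highest library. The log2 fold change from vehicle was -0.03 in erastin-R (95% CI -0.24 to 0.19, adjusted p = 0.845) and -0.02 in RSL3-R (95% CI -0.24 to 0.19, adjusted p = 0.870), so a 2-fold difference lay outside both intervals. Without erastin-R replicate 1, ZEB1 was lower in erastin-R than in vehicle at -0.18 (adjusted p = 0.0127) and higher in RSL3-R than in erastin-R at 0.15 (adjusted p = 0.0338). ZEB1-AS1, on the opposite strand, shares 4.23% of the ZEB1 exon length and had 161 to 273 counts. Strand-specific counting was not stated, so reads of the shared stretch cannot be told apart.

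ZEB2, its paralogue, had 249, 271 and 338 counts in vehicle, 377, 236 and 324 in erastin-R and 356, 379 and 401 in RSL3-R. The 3 RSL3-R libraries lay above the vehicle libraries in CPM, whereas the erastin-R libraries (15.0 to 22.5 CPM) overlapped them (14.8 to 20.8). ZEB2 was higher in RSL3-R than in vehicle by a log2 fold change of 0.42 (SE 0.144, adjusted p = 0.0276), and the erastin-R difference was 0.13 (adjusted p = 0.483). The RSL3-R call was lost when vehicle replicate 1 (0.31, adjusted p = 0.125), vehicle replicate 2 (0.38, adjusted p = 0.0894), RSL3-R replicate 2 (0.41, adjusted p = 0.0723) or RSL3-R replicate 3 (0.45, adjusted p = 0.0507) was left out. RSL3-R against erastin-R gave 0.29 (adjusted p = 0.109), and 0.42 (adjusted p = 0.00479) without erastin-R replicate 1. TWIST1, a basic helix-loop-helix factor, had no count in any library and was not tested.

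CDH1 was higher in RSL3-R than in either other group, from a very low level. The gene lies on the plus strand of chr16:68737225-68835548 and encodes E-cadherin, the adhesion protein of epithelial junctions. Its counts were 15, 14 and 27 in vehicle, 11, 6 and 20 in erastin-R and 59, 53 and 55 in RSL3-R. Every RSL3-R library exceeded every other library, whereas vehicle and erastin-R overlapped. Means were 1.14 ± 0.454, 0.751 ± 0.425 and 3.44 ± 0.320 CPM (SD, n = 3). The log2 fold change was 1.58 (SE 0.331, adjusted p = 0.00130) against vehicle and 2.18 (SE 0.353, adjusted p = 1.86e-04) against erastin-R, or 4.52-fold. Erastin-R against vehicle gave -0.59 (95% CI -1.45 to 0.27, adjusted p = 0.232), an interval too wide to place CDH1 above or below vehicle. Without erastin-R replicate 3 this difference was -1.11 (adjusted p = 0.0452). At 0.552 FPKM in RSL3-R, CDH1 remained far below VIM at 259 FPKM.

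Genes used as markers of other cell types were read beside the CDH1 result. All 3 groups were of 1 cultured line, and no other cell type is named for these libraries. In bulk samples, fewer cells with a transcript and less RNA per cell cannot be told apart. The 6 leukocyte markers summed to 1.19 to 1.97 CPM in vehicle, 0.318 to 1.31 in erastin-R and 2.42 to 2.57 in RSL3-R. Of these only PTPRC could be tested, with 4 to 11 counts in vehicle and 19 to 24 in RSL3-R, and it was higher there (log2 fold change 1.67, adjusted p = 0.00817). The 6 fibroblast markers summed to 14.7 to 17.2, 13.8 to 17.3 and 20.6 to 23.3 CPM in the 3 groups, and the 5 endothelial markers to 18.7 to 22.5, 10.9 to 12.7 and 22.4 to 25.8. Single markers did not all follow these sums. Of the fibroblast markers, 3 could be tested, and in RSL3-R PDGFRB (0.69, adjusted p = 3.90e-04) and COL1A1 (0.39, adjusted p = 0.0469) were higher while DCN, with 13 to 18 counts in vehicle and 2 to 5 there, was lower (-2.14, adjusted p = 0.00305). DCN was also lower in erastin-R (1 to 4 counts, -2.86, adjusted p = 6.41e-04). The COL1A1 call was lost in 9 of 15 alternatives, among them those without vehicle replicate 2 or 3, erastin-R replicate 2, or RSL3-R replicate 2 or 3 (adjusted p up to 0.172). Of the endothelial markers only PECAM1 and KDR could be tested. PECAM1 fell from 9.99 to 1.79 CPM in erastin-R (-2.47, adjusted p = 8.28e-08) and stood at 12.8 CPM in RSL3-R (0.36, adjusted p = 0.0469, lost in 9 of 15 alternatives, among them those without any 1 of the vehicle libraries or RSL3-R replicate 1 or 2), and KDR did not pass in either. The 6 luminal and receptor markers went the other way, from 99.4 to 110 CPM in vehicle and 88.6 to 102 in erastin-R to 67.8 to 73.0 in RSL3-R. No marker was at 0 in all 9 libraries. The part of these levels, and of the mitochondrial share, in the CDH1 and SNAI1 differences was not tested.

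The mesenchymal cadherins were barely detected. CDH2 (N-cadherin) had 1, 2 and 4 counts in vehicle, 3, 4 and 0 in erastin-R and 1, 8 and 7 in RSL3-R. CDH11 (OB-cadherin) had 8, 2 and 3, then 2, 4 and 3, then 6, 6 and 2. The groups of both genes overlapped, and a difference was not detectable at this depth.

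VIM, the type III intermediate filament of mesenchymal cells, lay in a narrow range. It had 24568, 23373 and 24608 counts in vehicle, 26549, 21637 and 22662 in erastin-R and 21099, 20507 and 24065 in RSL3-R. In CPM the RSL3-R libraries, at 1274 to 1406, lay below the vehicle libraries, at 1444 to 1518, and the erastin-R libraries, at 1377 to 1581, overlapped both. The log2 fold change from vehicle was -0.03 in erastin-R (95% CI -0.17 to 0.11, adjusted p = 0.718) and -0.13 in RSL3-R (95% CI -0.27 to 0.01, adjusted p = 0.108). Without erastin-R replicate 1 both passed the test, at -0.10 (adjusted p = 0.0347) and -0.13 (adjusted p = 0.00242). VIM-AS1 on the opposite strand shares 12.4% of the VIM exon length and had 50 to 152 counts, beside at least 20507 for VIM. As strand-specific counting was not stated, these counts do not show how reads of the shared stretch were assigned.

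EPCAM, whose protein holds epithelial cells together, had 48, 28 and 30 counts in vehicle, 25, 15 and 25 in erastin-R and 25, 21 and 35 in RSL3-R. The erastin-R libraries lay below the vehicle libraries in CPM, and the RSL3-R libraries overlapped them. Its log2 fold change was -0.70 (SE 0.301, adjusted p = 0.0648) in erastin-R and -0.37 (adjusted p = 0.314) in RSL3-R. The first passed at -0.79 (adjusted p = 0.0491) without erastin-R replicate 1. EPCAM did not pass the test in RSL3-R, where CDH1 was higher.

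**Figure D3:**
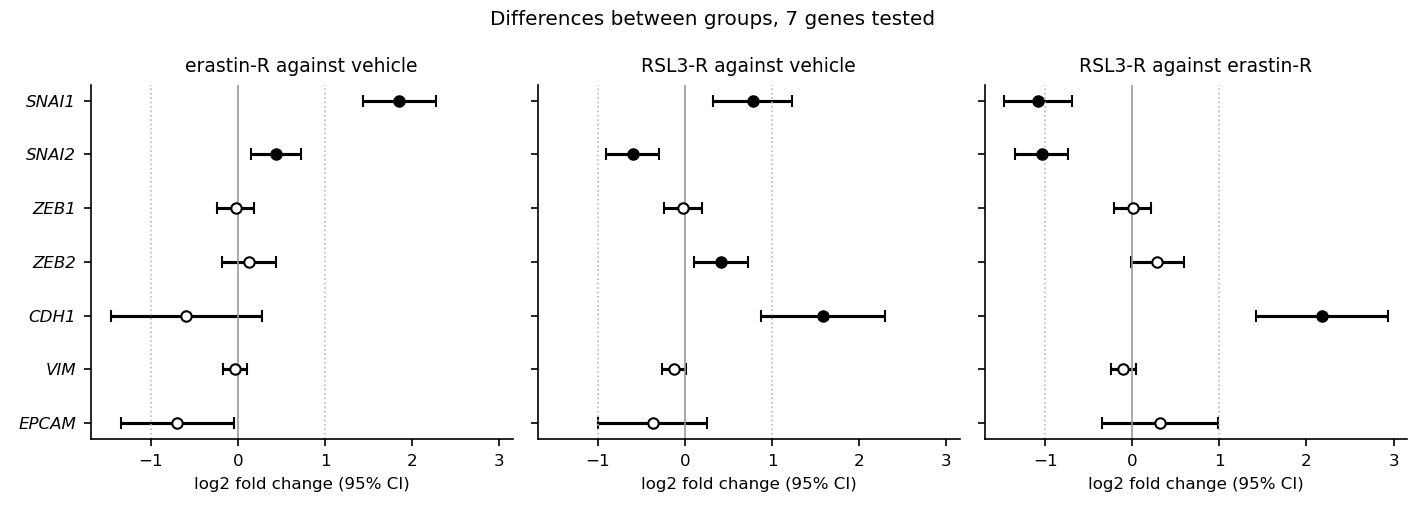
Log2 fold change of the 7 genes tested in the 3 comparisons, with 95% confidence intervals. Filled points passed an adjusted p of 0.05 and open points did not, and dotted lines mark a 2-fold difference. SNAI1 in erastin-R (1.86) and CDH1 in RSL3-R (1.58) are the points beyond 2-fold against vehicle, and SNAI2 lies on opposite sides of 0 in the 2 comparisons with vehicle.

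Genes whose levels over the 9 libraries were among the most like SNAI1 were BCL7A (Pearson r = 0.993) and SEC24A (0.992), a coat protein of secretory vesicles. The closest to CDH1 were NEMP2 (0.982), CKMT2 (0.978), a mitochondrial creatine kinase, and LMBRD1 (0.975), a lysosomal cobalamin transporter. These come from the top of 12969 protein-coding genes compared and are given as descriptions over 9 libraries that share their groups and depth. SEC24A had 58.1 CPM in vehicle, 127.6 in erastin-R and 79.2 in RSL3-R. NEMP2 had 14.9, 14.4 and 18.2 CPM.

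Other EMT transcription factors moved in both directions. The list counts from here on stand beside 27.1% of all genes higher and 26.8% lower in erastin-R, and 23.8% and 24.9% in RSL3-R, and no list was tested against these shares. In erastin-R 6 of 11 tested were higher and 3 lower than in vehicle (median log2 fold change 0.23, beside -0.004 over all genes). In RSL3-R 3 were higher and 4 lower (median -0.15, beside 0.005). SOX4, a factor downstream of TGF-beta, fell from 77.4 ± 2.64 to 34.0 ± 3.19 CPM in erastin-R (-1.19, adjusted p = 4.44e-08) and to 54.1 ± 2.87 in RSL3-R (-0.52, adjusted p = 8.11e-05). FOXC1, a forkhead factor of basal-like tumours, rose by 0.74 in erastin-R (adjusted p = 6.91e-06), and KLF8 rose by 0.59 (adjusted p = 0.0106) there and 0.70 (adjusted p = 0.00417) in RSL3-R. KLF8 in erastin-R was lost without vehicle replicate 1 (0.46, adjusted p = 0.0569). SOX9 was lower in erastin-R (-0.57, adjusted p = 2.36e-05), and TCF3 (-0.54, adjusted p = 1.20e-04), which encodes the E-proteins E12 and E47, was lower in RSL3-R.

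Epithelial transcription and splicing factors also moved in both directions. Of 9 tested, 4 were higher and 2 lower in RSL3-R than in vehicle (median -0.39), and 1 was higher and 3 lower in erastin-R (median 0.007). ELF3, an epithelial ETS factor, had 24 to 30 counts in vehicle and 92 to 117 in RSL3-R (1.98, adjusted p = 1.51e-06) and had 19 to 24 in erastin-R. ELF3-AS1 overlaps 9.23% of its exon length with 41 to 63 counts, so some of these reads cannot be assigned without strand. KLF4, a barrier epithelium factor, rose from 37.1 ± 2.30 to 135 ± 4.84 CPM in RSL3-R (1.86, adjusted p = 5.62e-10). Its call in erastin-R (0.21, adjusted p = 0.0421) was the 1 higher call, which was lost without vehicle replicate 2 or 3, erastin-R replicate 2 or 3, or any RSL3-R library. SPDEF, an ETS factor of luminal and secretory cells, fell from 11.1 ± 1.14 to 1.62 ± 0.387 CPM in erastin-R (-2.78, adjusted p = 4.53e-08). EHF was lower in erastin-R (-0.59, adjusted p = 1.64e-04) and higher in RSL3-R (0.57, adjusted p = 1.79e-04), KLF5 was lower in erastin-R (-0.26, adjusted p = 0.0123), and ESRP2, an epithelial splicing regulator, was lower in RSL3-R (-0.72, adjusted p = 0.00515). KLF5 in erastin-R was lost without erastin-R replicate 2 (-0.21, adjusted p = 0.0633). The lower count in RSL3-R was 1 without vehicle replicate 1, RSL3-R replicate 1 or RSL3-R replicate 3.

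Few other cadherins were expressed. Of 19 listed, 4 were tested, with 2 higher and 0 lower in erastin-R and 2 higher and 1 lower in RSL3-R (medians 0.86 and 0.76). CDH4 (R-cadherin) rose from 49.6 ± 2.91 to 82.6 ± 5.02 CPM in erastin-R (0.74, adjusted p = 1.48e-06) and 60.4 ± 2.37 in RSL3-R (0.28, adjusted p = 0.00516). CDH24 fell from 53.7 ± 2.27 to 25.4 ± 1.31 CPM in RSL3-R (-1.08, adjusted p = 2.76e-06). CDH3 (P-cadherin) had 2 to 11 counts in vehicle and 15 to 19 in erastin-R (1.71, adjusted p = 0.0123), and lost the call without vehicle replicate 1 (1.31, adjusted p = 0.0583) or replicate 3 (1.43, adjusted p = 0.0559), which left 1 cadherin higher. CDH20 had 2 to 5 counts in vehicle and 13 to 15 in RSL3-R (1.88, adjusted p = 0.00329). Without erastin-R replicate 3, 1 cadherin was lower in erastin-R.

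Of 12 catenins and adherens junction partners tested, 4 were higher and 7 lower in erastin-R (median -0.22). In RSL3-R 3 were higher and 5 lower (median -0.15). NECTIN1, a junction adhesion molecule, fell from 18.0 ± 1.98 to 5.44 ± 1.25 CPM in erastin-R (-1.73, adjusted p = 7.85e-07) and 9.79 ± 0.850 in RSL3-R (-0.88, adjusted p = 2.43e-04). JUP (gamma-catenin) fell in erastin-R (-0.95, adjusted p = 8.54e-07), as did CTNND1 (p120-catenin; -0.53, adjusted p = 2.71e-06), whereas PLEKHA7, which links p120 to microtubules, rose (0.59, adjusted p = 1.24e-05). In RSL3-R NECTIN3 rose (0.60, adjusted p = 7.26e-06), VCL (vinculin) fell (-0.30, adjusted p = 3.49e-04) and CTNNAL1 rose (0.26, adjusted p = 0.0106). The CTNNAL1 call was lost without vehicle replicate 1 (0.19, adjusted p = 0.0626) or replicate 2 (0.23, adjusted p = 0.0552), and then 1 gene of the list was higher. The lower count in RSL3-R was 3 without vehicle replicate 2 or RSL3-R replicate 1, and 2 without RSL3-R replicate 3.

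Among tight junction and desmosome genes, 4 of 20 tested were higher and 5 lower in erastin-R (median 0.02), and 8 were higher and 5 lower in RSL3-R (median 0.002). CLDN1, a claudin strand protein, had 47 to 54 counts in vehicle and rose to 78 to 107 in erastin-R (0.85, adjusted p = 0.00123) and 217 to 321 in RSL3-R (2.38, adjusted p = 6.27e-08). CLDN3 had 9 to 12 counts in vehicle and rose to 32 to 42 in erastin-R (1.73, adjusted p = 3.06e-04). CGN (cingulin) fell in erastin-R (-1.30, adjusted p = 0.0105) and in RSL3-R (-1.50, adjusted p = 0.00572), the first lost without vehicle replicate 1 (-1.09, adjusted p = 0.0540), when 3 genes were lower in erastin-R. PKP3, a desmosomal plakophilin, fell in erastin-R (-0.63, adjusted p = 0.00203). In RSL3-R TJP3 rose (1.01, adjusted p = 0.0165) but not without RSL3-R replicate 2 (0.90, adjusted p = 0.0607), and LLGL2, a polarity gene, rose (0.95, adjusted p = 7.08e-05).

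Epithelial keratins and surface proteins were lower in erastin-R for 8 of 18 tested and higher for 4 (median -0.26), and higher in RSL3-R for 7 and lower for 4 (median 0.18). Compared with erastin-R, RSL3-R had 10 higher and 2 lower (median 0.39, beside -0.02 over all genes, of which 22.3% were higher and 26.9% lower). KRT80 fell from 212 ± 2.35 to 63.7 ± 5.59 CPM in erastin-R (-1.74, adjusted p = 6.45e-10). The simple-epithelium keratins KRT18 (-1.12, adjusted p = 9.48e-08) and KRT8 (-1.004, adjusted p = 2.23e-08) also fell there. They overlap each other on opposite strands and share 14.3% and 10.1% of their 50-base words with other genes, so their counts are less certain. SPINT1, an inhibitor of epithelial serine proteases, had 23 to 29 counts in vehicle and rose to 55 to 69 in erastin-R (1.20, adjusted p = 1.85e-04) and 169 to 223 in RSL3-R (2.85, adjusted p = 2.58e-08). MAL2, an apical transport protein, rose in RSL3-R (1.64, adjusted p = 8.70e-07), where AP1M2, an epithelial sorting adaptor, fell (-1.42, adjusted p = 1.29e-05). KRT17, at 2 to 21 counts, was higher in RSL3-R (1.72, adjusted p = 0.0222), a call lost without vehicle replicate 1 (1.58, adjusted p = 0.0767), vehicle replicate 2 (1.43, adjusted p = 0.0911) or RSL3-R replicate 3 (1.19, adjusted p = 0.142).

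Mesenchymal effectors moved in both directions. In erastin-R 5 of 22 tested were higher and 9 lower (median -0.06), and in RSL3-R 11 were higher and 6 lower (median 0.19). FN1 (fibronectin) fell from 2180 ± 59.2 to 1034 ± 72.6 CPM in erastin-R (-1.08, adjusted p = 7.12e-09), and NES (nestin) fell there by 1.17 on the log2 scale (adjusted p = 1.19e-07). MYL9, a myosin light chain, was lower in erastin-R (-0.99, adjusted p = 1.39e-07) and in RSL3-R (-1.12, adjusted p = 4.56e-08). TNC (tenascin C) rose from 29.8 ± 2.21 to 93.8 ± 5.01 CPM in RSL3-R (1.66, adjusted p = 3.56e-09), where TAGLN, an actin-binding protein, fell (-0.75, adjusted p = 1.53e-04) and the receptor PDGFRB rose (0.69, adjusted p = 3.90e-04).

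Of 15 genes tested that link E-cadherin to merlin and Hippo signalling, 7 were higher and 2 lower in erastin-R (median 0.15, beside 27.1% and 26.8% of all genes), while in RSL3-R 5 were higher and 4 lower (median 0.06). LATS2, a Hippo kinase, rose from 50.9 ± 1.11 to 98.0 ± 1.72 CPM in erastin-R (0.94, adjusted p = 3.07e-08). WWC1, the scaffold KIBRA (0.84, adjusted p = 1.78e-07), and NF2, which encodes merlin (0.65, adjusted p = 6.59e-04), rose with it. WWTR1, the coactivator TAZ, was lower in erastin-R (-0.51, adjusted p = 1.90e-05) and in RSL3-R (-0.49, adjusted p = 3.06e-05). In RSL3-R FRMD6 rose (0.65, adjusted p = 4.14e-07), as did the kinase STK4 (0.48, adjusted p = 3.85e-05), and the DNA-binding partner TEAD4 fell (-0.58, adjusted p = 6.44e-04).

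**Figure D4:**
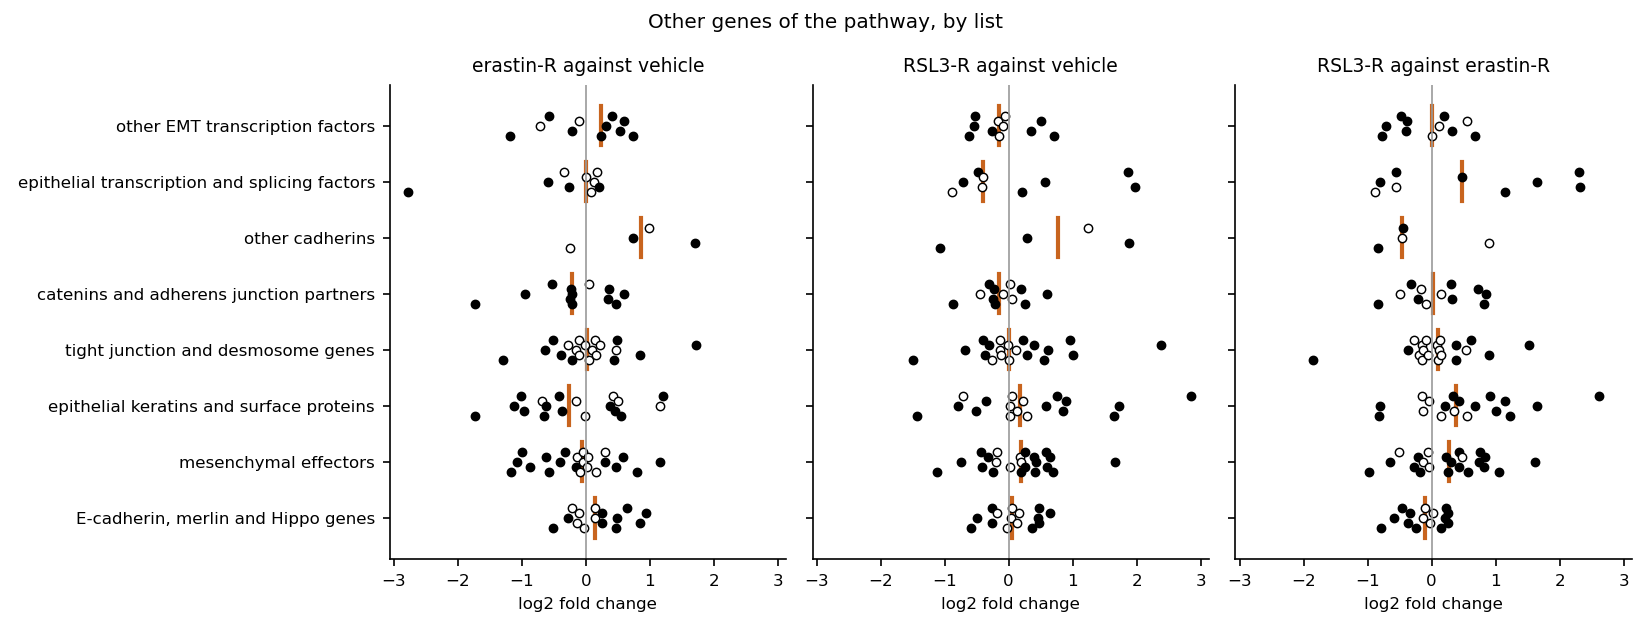
Log2 fold change of the tested genes of 8 lists in the 3 comparisons. Filled points passed an adjusted p of 0.05, open points did not, and the vertical bar is the list's median. SPDEF (-2.78) lies farthest out in erastin-R against vehicle and SPINT1 (2.85) in RSL3-R against vehicle, and the list medians run from -0.39 to 0.86 in the comparisons with vehicle.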

How the data were processed

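RNA of 9 MDA-MB-231 samples (3 groups of 3, from the labels) was sequenced from polyadenylated libraries. Per the labels' processing notes the authors used HISAT2 2.0.5 and featureCounts 1.5.0-p3, whose roles are not given there, and the methods describe uniquely mapped exonic reads. The authors deposited, for each library, raw counts per gene and FPKM values scaled by gene length and library depth. All 58735 gene IDs had the coordinates of GENCODE 29 (GRCh38). The strand setting of counting was not given in the sources used here.

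From the deposited counts, 1 model over 9 libraries was fitted with edgeR 4.0.16 in R 4.3.3 (TMM normalisation, filterByExpr, quasi-likelihood test, Benjamini-Hochberg adjustment over 16188 genes) and tested on simulated data. CPM used TMM library sizes. FPKM served only to order levels. Intervals of fold changes, at 95% confidence, come from this fit and include the spread between libraries, and floors of 3 counts cover counting error only. Library totals were 15405102 to 17273464 counts. The common dispersion of the fit, 0.00732, corresponds to a coefficient of variation of 8.56% for a gene between libraries of a group, apart from counting error. Counting error comes on top of it and is larger at low counts. Alternatives were RLE normalisation, DESeq2 1.42.0, limma 3.58.1 on quantile-normalised log2 CPM (prior count 3), no filter, only the 2 groups compared, a replicate block, each library left out, and unadjusted p.

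The 10 genes and the lists were chosen with earlier results of these data known. Named were all 10 genes, up to 4 genes of each list with the largest log2 fold change among those passing the test with non-overlapping libraries in each comparison with vehicle, the 3 protein-coding genes most correlated with each gene differentially expressed against vehicle, and opposite-strand genes. Of the genes this rule names, 3 are not reported here. Of the opposite-strand genes, those without exon overlap or with at most 1 count (TWIST1, ZEB2, CDH1, CDH2 and EPCAM) were only checked. Cell type markers that passed the test, and list genes that passed in opposite directions, were named after their values were seen. Seed matches and 50-base words shared with other transcripts were added after the data were seen. Same-numbered libraries did not deviate together (correlations -0.0904 to 0.0518 over 9 pairs), so the numbers were not used as pairs.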

Additional observations from a re-analysis of the deposited data

Results flagged for a closer look

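SNAI2 was picked out because it passed the test in both comparisons with vehicle and in opposite directions, at 0.44 in erastin-R and -0.60 in RSL3-R on the log2 scale. The log2 difference of RSL3-R against erastin-R, -1.04, follows from these 2 values, which share the vehicle libraries, and is given as a description. Over 15 alternatives it lay between -1.12 and -0.92, and the erastin-R call was lost in 2 of them.

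Of 119 genes of the other lists and markers tested, 10 met the same description, beside 3.94% of all genes. Their differences of RSL3-R against erastin-R are likewise descriptions, since the genes were picked for opposite calls in the same libraries. RSL3-R was the higher for the endothelial marker PECAM1 (2.83), MAL2 (2.61), EHF (1.15), KRT7 (1.004), NECTIN3 (0.82), NT5E (0.74) and KLF5 (0.47). It was the lower for PLEKHA7 (-0.83), CD24 (-0.82) and TCF3 (-0.78). Of the 2 calls against vehicle behind each value, the one in RSL3-R was lost for PECAM1 in 9, KLF5 in 8, PLEKHA7 in 4 and CD24 in 2 of 15 alternatives. The one in erastin-R was lost for TCF3 in 6 and NECTIN3 in 2, and for KLF5 without erastin-R replicate 2.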

How the results depend on the processing

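SNAI1 kept its direction and its side of the adjusted p in all 3 comparisons under 15 alternatives, as did CDH1 in RSL3-R against vehicle (1.34 to 1.95) and against erastin-R (1.87 to 2.70). With single libraries left out, the number of the 10 genes past the adjusted p ranged from 1 to 5 in erastin-R against vehicle (1 without vehicle replicate 3 or erastin-R replicate 2, and 5 without erastin-R replicate 1, when ZEB1, VIM and EPCAM were also called). It ranged from 3 to 5 in RSL3-R against erastin-R (5 without erastin-R replicate 1, when ZEB1 and ZEB2 were also called). The number past a 2-fold difference in erastin-R against vehicle ranged from 1 to 2 (2 without erastin-R replicate 3, when CDH1 was also called). In RSL3-R against erastin-R it ranged from 2 to 3, with 2 where SNAI1 (without RSL3-R replicate 3) or SNAI2 (without erastin-R replicate 2 or RSL3-R replicate 1) was under 2-fold. With all 9 libraries, 8735 and 7969 of 16188 genes passed in these 2 comparisons, and 13.4% and 10.3% also met 2-fold. The shares of all genes with single libraries left out are not given here, so these ranges are descriptions. Differences near 0 changed sign. In erastin-R against vehicle, VIM was 0.0362 under quantile normalisation and ran from -0.1007 to 0.005 with libraries left out, ZEB1 from -0.1755 to 0.0449 and ZEB2 from -0.0084 to 0.2706. In RSL3-R against vehicle ZEB1 was 0.0251 under quantile normalisation and ran from -0.0848 to 0.0364, and in RSL3-R against erastin-R from -0.0706 to 0.1496. Quantile normalisation with limma called VIM lower in RSL3-R, at -0.17 (adjusted p = 0.0356) against vehicle and -0.21 (adjusted p = 0.0140) against erastin-R, and fitting only vehicle and RSL3-R gave -0.13 (adjusted p = 0.00732). The cause of these shifts was not tested. Of 60 named values of the other lists, 53 kept the call in every alternative that gave a value, 7 lost it in at least 1 and 0 reversed. KRT17 was also lost with DESeq2 (1.75, adjusted p = 0.0544) and limma (0.87, adjusted p = 0.0966), and KLF4 in erastin-R with DESeq2, limma, no filter and only 2 groups. With the replicate block, 2, 4 and 3 of the 10 genes passed in the 3 comparisons, as without it, and SNAI1 in erastin-R was 1.86 (adjusted p = 1.48e-05). Of all genes, 8438, 7508 and 7614 passed with the block, against 8735, 7879 and 7969 without it. No call of the 10 genes changed with the block. Those of KLF4, CD44 and ERBB2 in erastin-R and of COL1A1, PECAM1 and KLF5 in RSL3-R were lost. At this depth TWIST1, CDH2 and CDH11 could not be compared.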
